A study of Homo sapiens with 12 samples.

Results

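The cultures described here are 4 of the 6 in the tunicamycin (TN) experiment, namely the DMSO and TN libraries numbered 2 and 3, in which interferon-stimulated genes (ISGs) stood high. They were selected on the levels of ISG15, OASL, IFIT2, and RSAD2 and were compared with the 2 libraries numbered 1 of the same experiment. Of 14432 tested genes, 1015 were higher and 124 were lower in the interferon-high cultures. A gene was counted when all 4 libraries numbered 2 and 3 lay on the same side of both libraries numbered 1, and when the mean difference was at least 1 on the log2 scale, a factor of 2, within DMSO and within TN alike. The numbers were grouped with their ISG levels known, so that the difference between the numbers is a description and was not tested.

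All cultures were wild-type HCT116 cells, an established human colon cancer cell line, grown in RPMI1640 with fetal bovine serum. In the TN experiment, 3 cultures received DMSO and 3 received TN at 5 µg/mL for 24 h. TN blocks the N-glycosylation of proteins and causes stress of the endoplasmic reticulum. The second experiment, with oligomycin A (OA), which blocks the ATP synthase of mitochondria, had 3 DMSO and 3 OA cultures of 24 h, and its libraries served as an outside reference. The OA dose is not the same in the labels and in the study's methods and is not used here. The labels call the libraries biological replicates and do not say whether a number marks a day, a passage, or a batch of cells, so what set the numbers apart cannot be told apart from the number itself. All 12 libraries come from 1 cell line, and p-values measure only the spread between these libraries.

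Interferons are secreted proteins that cells make when receptors such as RIG-I and MDA5 meet double-stranded RNA. IFNB1 is a type I interferon, and IFNL1, IFNL2, and IFNL3 are type III interferons, which act mainly on epithelial cells. Both types signal through JAK kinases to transcription factors, which bind the interferon-stimulated response element in the promoters of ISGs. Many ISG products block viral RNA or protein synthesis, and others, such as RIG-I, MDA5, and IRF7, belong to the pathway itself.

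The promoters of 4 genes that were higher in the interferon-high cultures are printed here because they show this element in an ISG, an RNA sensor, an interferon, and a chemokine. The sequences are from RefSeq (GRCh38.p14), run from 250 bases before to 50 bases after the start of the gene in the direction of transcription, and carry in capitals every match to 2 copies of GAAA with 2 bases of any kind between them, on either strand, with overlapping matches merged. ISG15 is at chr1:1013247-1013546 on the plus strand, IFIH1 at chr2:162318635-162318934 on the minus strand, IFNL1 at chr19:39296157-39296456 on the plus strand, and CXCL10 at chr4:76023448-76023747 on the minus strand.
ISG15: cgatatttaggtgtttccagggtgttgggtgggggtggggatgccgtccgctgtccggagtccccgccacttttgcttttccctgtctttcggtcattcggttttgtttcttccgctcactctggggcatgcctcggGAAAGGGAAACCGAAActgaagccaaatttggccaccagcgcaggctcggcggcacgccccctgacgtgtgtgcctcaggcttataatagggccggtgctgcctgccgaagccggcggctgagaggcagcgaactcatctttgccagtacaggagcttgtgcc
IFIH1: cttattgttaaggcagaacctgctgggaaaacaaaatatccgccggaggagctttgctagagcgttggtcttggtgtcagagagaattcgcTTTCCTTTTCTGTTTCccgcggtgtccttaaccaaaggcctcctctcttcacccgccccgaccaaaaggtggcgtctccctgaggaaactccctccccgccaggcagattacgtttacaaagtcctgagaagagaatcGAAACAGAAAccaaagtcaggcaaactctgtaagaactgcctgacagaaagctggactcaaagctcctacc
IFNL1: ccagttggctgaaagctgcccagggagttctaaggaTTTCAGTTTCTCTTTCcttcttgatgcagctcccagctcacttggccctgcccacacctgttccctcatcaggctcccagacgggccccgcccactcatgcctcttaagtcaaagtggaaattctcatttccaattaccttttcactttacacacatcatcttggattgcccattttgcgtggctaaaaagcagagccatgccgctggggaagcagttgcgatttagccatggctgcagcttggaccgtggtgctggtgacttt
CXCL10: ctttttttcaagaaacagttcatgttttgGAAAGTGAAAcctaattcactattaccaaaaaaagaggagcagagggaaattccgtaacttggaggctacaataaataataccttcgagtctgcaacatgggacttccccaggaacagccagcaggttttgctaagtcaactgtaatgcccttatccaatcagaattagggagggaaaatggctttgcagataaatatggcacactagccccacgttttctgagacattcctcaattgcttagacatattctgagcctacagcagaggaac
The table of promoters held 808 of the 1015 higher genes, 68 of the 124 lower genes, and 10595 of all 14432 tested genes. Among the higher genes in the interferon lists, 36 of 61 promoters held the letters (59.0%). Among the tested interferon-list genes that were neither higher nor lower, 17 of 62 did (27.4%), and among all tested genes 287 of 10595 (2.71%). Outside the interferon lists, 23 of 747 promoters of higher genes held them (3.08%), or 8 of 111 (7.21%) among those still counted after a correction for GC content described later, and 0 of 68 promoters of lower genes did. The ISG15 and IFNL1 promoters each have 2 overlapping matches, IFIH1 has 3, of which 2 overlap, and CXCL10 has 1. RSAD2 and OAS1 have no match to these letters in this window, and OASL and IFIT2 are named only. A match of letters is a description and not a binding site. The letters GGG and TTTCC with 2 bases of any kind between them, of the NF-kB type, were found in 6.56% of the promoters of higher interferon-list genes and in 8.06% of those of the other interferon-list genes, on either strand. They were in 2.01% of the promoters of higher genes outside the lists, in 4.5% of those that remained after the GC correction, and in 2.03% of all tested ones. The letters TCACNCCAC, of the sterol response type, were in 0 of 68 promoters of lower genes and in 1.05% of all tested ones. Among the promoters of the cholesterol synthesis list, 1 of 18 held them (5.56%).

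The library totals were between 10332659 and 18325231 counts in the TN experiment and between 9884124 and 24983573 counts over all 12 libraries. The noncoding RNA RN7SL1 took 6.23% to 10.0% of the counts in the interferon-high cultures and 7.50% and 13.3% in the libraries numbered 1. Libraries also differed in how their genes deviated with the GC content of the transcript. The Spearman correlation of that deviation with GC content across 13013 genes, which are not independent replicates, lay between -0.47 and -0.36 in the 4 interferon-high libraries and was 0.33 and 0.69 in DMSO 1 and TN 1. Among the OA libraries it ranged from -0.62 to 0.50 across 13082 genes. Hence a GC trend of opposite sign moved with the grouping, and the counts of higher and lower genes are also given after a smooth correction for GC content within each library (GC offsets). The epithelial keratin genes KRT8, KRT18, and KRT19 were expressed in all 6 TN-experiment libraries, whereas CDX1, an intestinal transcription factor, was at 0 counts in all of them. Of 10 colon epithelium markers, 6 were above 3 counts in all 6 libraries, among them CDX2. KRT20 was at 0 to 49 counts, CDH17 at 0 to 6, and VIL1 at 0 to 3. The 3 keratin genes made up most of the sum of the 10. The sum of 10 colon epithelium markers was 5701 to 7644 CPM (counts scaled to library size) in the libraries numbered 1 and 3960 to 4855 CPM in the interferon-high ones, on the scale of all 12 libraries, while EPCAM was at 202.5 and 140.0 CPM in the former and at 231.7 to 305.0 CPM in the latter. The part of this difference in the results was not tested. Of 11 leukocyte markers, 6 were at 0 counts in every TN library, and the sum of all 11 was at most 0.637 CPM in any of these libraries. Markers of fibroblasts and endothelium summed to 2.57 to 5.66 CPM over the 6 libraries. In bulk RNA, more cells that express a gene and more RNA per cell cannot be told apart.

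The 4 marker genes that define the cultures are ISG15, a ubiquitin-like protein attached to other proteins, OASL, which enhances sensing by RIG-I, IFIT2, which binds viral RNA, and RSAD2 (viperin), which makes a chain-terminating nucleotide. Levels are CPM after TMM scaling over the 6 TN libraries unless stated otherwise. ISG15 was at 228, 2611, and 2644 CPM in DMSO 1, 2, and 3 and at 283, 1046, and 1112 CPM in TN 1, 2, and 3. OASL was at 7.39, 315, and 296 CPM in DMSO and at 12.01, 75.8, and 85.8 CPM in TN. IFIT2 was at 3.94, 254, and 274 CPM in DMSO and at 4.21, 74.0, and 79.9 CPM in TN. In each of these genes, all 4 libraries numbered 2 and 3 lay above both libraries numbered 1, and the DMSO libraries lay highest. RSAD2 had 0 counts in DMSO 1 and TN 1, 765 and 618 counts in DMSO 2 and 3, and 68 and 85 counts in TN 2 and 3. The difference of numbers 2 and 3 from number 1 was 11.5-fold in DMSO and 3.81-fold in TN for ISG15 and 67.0-fold and 18.3-fold for IFIT2. RSAD2 was at least 272-fold higher in DMSO and at least 21.5-fold higher in TN, taken against a floor of 3 counts in each library numbered 1. These markers chose the grouping, and their levels support nothing beyond it.

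**Figure D1:**
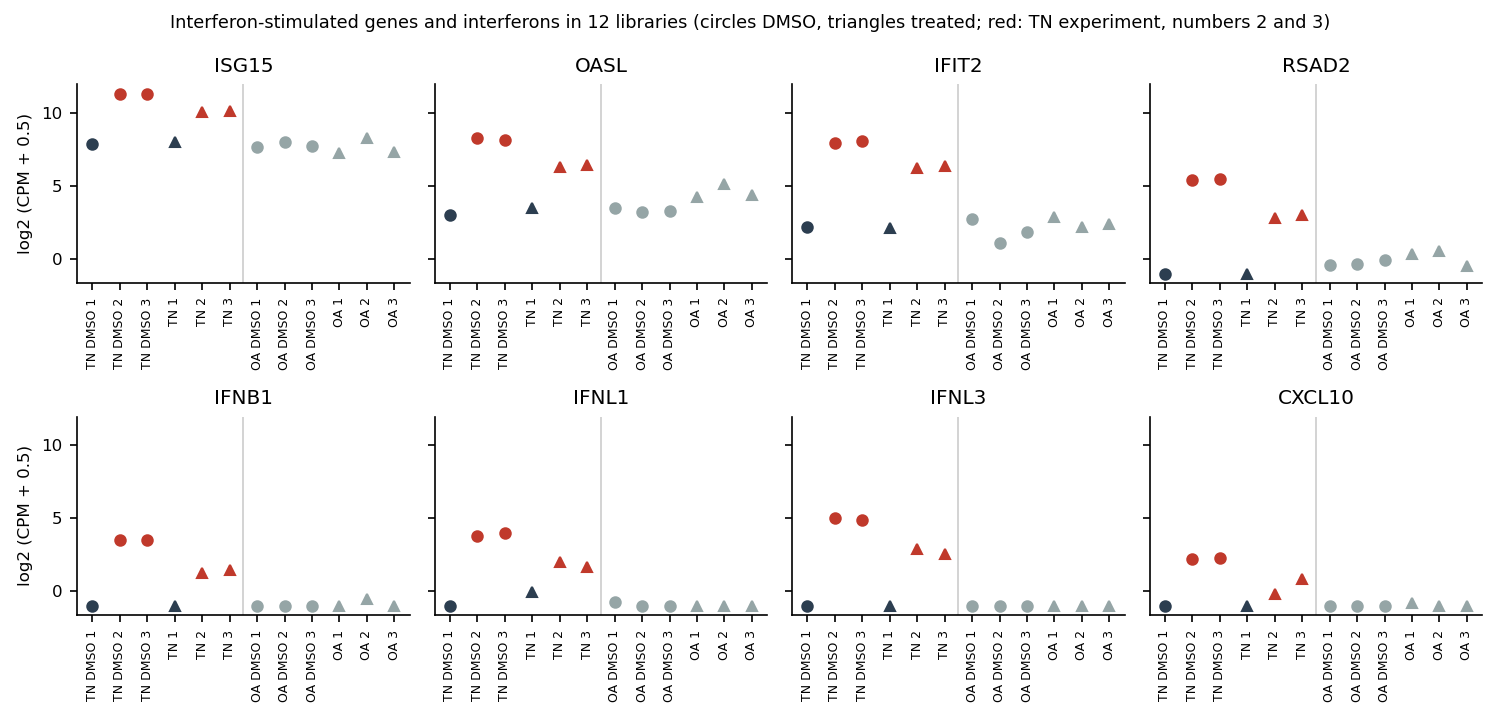
Level of 4 ISGs, 3 interferons, and CXCL10 in each of the 12 libraries, as log2 of CPM plus 0.5 with TMM scaling over all 12. The TN-experiment libraries numbered 2 and 3 (red) lie above all other libraries in each gene. The OA DMSO libraries (grey circles) lie near the libraries numbered 1 (dark blue), and 0 counts sit at the bottom. In OASL the OA-treated libraries (grey triangles) are at 18.5, 34.8, and 20.4 CPM, against 7.49 CPM in DMSO 1 and 10.8 CPM in TN 1.

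The OA libraries were not used in the grouping, and in the sum of interferon effectors the OA DMSO libraries lay near the libraries numbered 1. Summed over the 126 listed interferon effectors, the level was 2915 CPM in DMSO 1 and 3643 CPM in TN 1, on a scale set over all 12 libraries. It was 12818 and 12857 CPM in DMSO 2 and 3 and 7256 and 7264 CPM in TN 2 and 3. The 3 OA DMSO libraries were between 2931 and 3033 CPM. Of the 71 higher genes in the interferon lists, 70 had an OA DMSO mean closer to DMSO 1 than to the mean of DMSO 2 and 3, against 9530 of all 14432 tested genes. Among the 944 other higher genes 827 did, and among the 124 lower genes 58 did. These 3 groups were chosen for a gap between DMSO 1 and DMSO 2 and 3, unlike all tested genes. Thus, the 3 OA DMSO cultures and DMSO 1 were alike in the sum of interferon effectors, and DMSO 2 and 3 stood apart. The experiments may differ in other ways, and no test was made between them.

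Of the 10 listed interferon genes, 4 passed the filter on low counts, and each of these was higher in the interferon-high cultures. IFNB1 (chromosome 9, 21077104 to 21077942, minus strand) had 0, 193, and 150 counts in DMSO 1, 2, and 3 and 0, 20, and 26 counts in TN 1, 2, and 3. IFNL1 (chromosome 19, 39296407 to 39298673, plus strand) had 0, 246, and 215 counts in DMSO and 5, 37, and 31 counts in TN. IFNL2 had 0, 375, and 286 counts in DMSO and 0, 30, and 46 counts in TN. IFNL3 had 0, 572, and 403 counts in DMSO and 0, 75, and 62 counts in TN. Interferon mRNA was thus counted in all 4 interferon-high libraries, while in the libraries numbered 1 only IFNL1 in TN 1 had counts. Against the floor of 3 counts, IFNB1 was at least 67.3-fold higher in DMSO 2 and 3 than in DMSO 1 and at least 6.45-fold higher in TN 2 and 3 than in TN 1. IFNL3 was at least 190.1-fold higher in DMSO and at least 19.4-fold higher in TN. IFNL2 and IFNL3 are near-identical copies on chromosome 19, so the split of reads between them is uncertain. These 4 genes passed the filter through the libraries in which they are high.

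The effectors made up the bulk of the higher genes with an interferon role. Of 126 listed effectors, 98 passed the filter, and 50 of these were among the higher genes, 0 among the lower genes. Over all tested genes, 7.03% were higher by this definition and 0.859% lower, and the rule used this contrast, so nothing is read from these shares. The median difference over the 98 effectors was 1.57 on the log2 scale, and over all tested genes it was -0.08. IFIT1, which binds foreign RNA caps, had the values 7.01, 953, and 1059 CPM in DMSO and 2.63, 252, and 283 CPM in TN. IFI27, a mitochondrial ISG product, had 1.37, 192, and 209 CPM in DMSO and 1.16, 168, and 149 CPM in TN. OAS1, which makes the activator of RNase L, had 1.64, 176, and 176 CPM in DMSO and 0.421, 44.3, and 49.4 CPM in TN. All 3 genes were low in both libraries numbered 1, and IFI27 stood out by the small distance between its DMSO and TN levels in the cultures numbered 2 and 3. The mean log2 difference between the cultures was 6.99 for IFI44, 6.98 for IFI27, 6.90 for RSAD2, 6.86 for IFIT1, 6.49 for OAS1, 6.46 for IFI44L, and 6.17 for SAMD9, an antiviral factor that restricts translation. In IFI44L and RSAD2 both libraries numbered 1 were at 0 counts, and in IFI44 TN 1 was, so these fitted differences depend on the prior count of 2 and their order is not read.

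Sensors and adaptors of foreign nucleic acid were higher in 8 of 19 tested members and lower in 0. IFIH1, which encodes MDA5, a sensor of long double-stranded RNA, was at 3.23, 113, and 116 CPM in DMSO and at 4.32, 44.7, and 43.3 CPM in TN. DDX58, which encodes RIG-I, was at 1.04, 35.1, and 40.5 CPM in DMSO and at 2.21, 12.1, and 13.0 CPM in TN. Both sensor genes were low in the libraries numbered 1 and highest in DMSO 2 and 3. The other members were TLR3, the endosomal sensor of double-stranded RNA, with a mean log2 difference of 3.13, EIF2AK2, which encodes the kinase PKR, with 2.82, the kinase gene TBK1 with 2.18, and the adaptor genes TANK with 1.82 and AZI2 with 1.61. SAMHD1, a nucleotide hydrolase, differed by 1.35. With GC offsets, TBK1, TANK, and AZI2 were no longer counted as higher.

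Of the signalling genes, 4 of 25 tested members were higher and 0 lower. IRF7, which drives interferon transcription, was at 13.6, 110, and 107 CPM in DMSO and at 17.5, 60.6, and 57.9 CPM in TN. USP18, a negative regulator of the receptor, was at 13.3, 105, and 112 CPM in DMSO and at 6.64, 24.5, and 18.9 CPM in TN. In both genes the TN 2 and TN 3 libraries lay between the libraries numbered 1 and the DMSO libraries numbered 2 and 3. JAK2, a kinase of several cytokine receptors, was another member, and it was not counted with GC offsets. Of the genes for antigen presentation by class I molecules, 5 of 17 tested members were higher. B2M, the invariant chain, was at 367, 1118, and 1244 CPM in DMSO and at 289, 763, and 764 CPM in TN. The immunoproteasome genes PSMB9 and PSMB8 differed by 2.13 and 2.98, and the peptidase genes ERAP1 and ERAP2 by 1.66 and 2.86. With GC offsets, PSMB9 and PSMB8 were still counted as higher, and B2M, ERAP1, and ERAP2 were not. In 17 of 17 tested members the mean difference was positive, against 6563 of 14432 tested genes, and the median was 1.5 in DMSO and 0.30 in TN.

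Beyond the interferon lists, 7 of 16 tested chemokine and cytokine genes were higher and 0 lower. CXCL8, which attracts neutrophils, was at 0.219, 30.9, and 35.1 CPM in DMSO and at 5.37, 21.6, and 25.3 CPM in TN. IL15, a growth factor of natural killer cells, was at 1.15, 12.2, and 11.3 CPM in DMSO and at 2.95, 8.21, and 7.99 CPM in TN. CCL5, which attracts T cells, was at 0.110, 6.21, and 5.12 CPM in DMSO and at 0, 1.94, and 2.58 CPM in TN. CXCL10, a ligand of CXCR3, had 0 counts in both libraries numbered 1, 75 and 60 counts in DMSO 2 and 3, and 4 and 15 counts in TN 2 and 3. These genes were lowest in the libraries numbered 1. With GC offsets, CXCL8 and IL15 were no longer counted as higher. CXCL11 and CSF1, with log2 differences of 3.31 and 2.96, and CCL20 were the other members. CCL20 had 0 counts in both libraries numbered 1 and 7 to 13 counts in the others. Of 29 tested NF-kB target genes, 3 were higher, namely BIRC3, BIRC2, and REL. This count is near the share of 7.03% over all tested genes and is no result about the list. BIRC3, an inhibitor of cell death, was at 0.821, 21.1, and 26.8 CPM in DMSO and at 1.05, 12.3, and 13.6 CPM in TN, and it was counted as higher with GC offsets as well, whereas BIRC2 and REL were not. CCL5, CXCL10, CXCL11, CSF1, and CCL20 were chosen to be named after their values were seen.

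**Figure D2:**
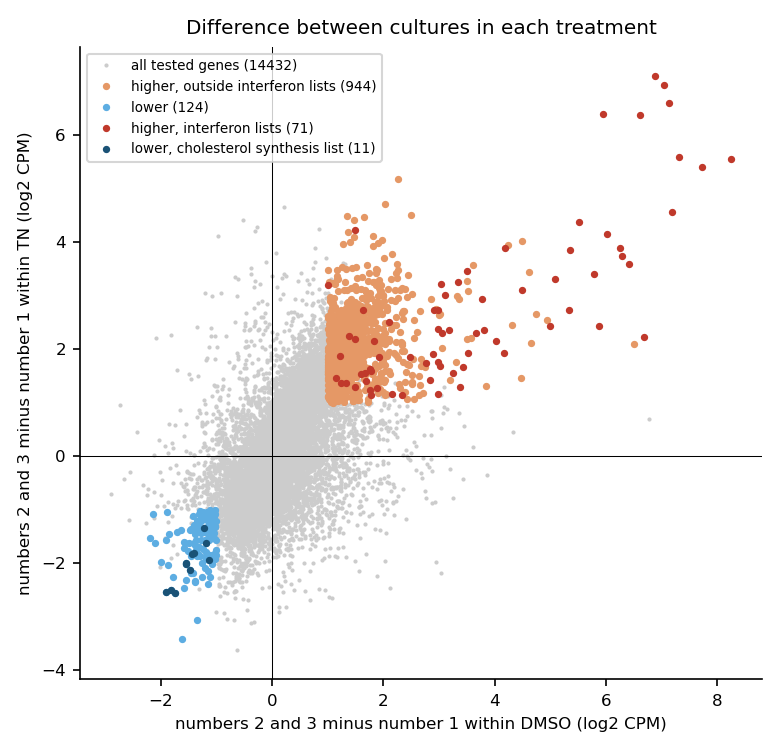
Mean log2 CPM of numbers 2 and 3 minus number 1 for each of 14432 tested genes, within DMSO on the x axis and within TN on the y axis. The 71 higher interferon-list genes (red) reach the upper right, the 944 other higher genes (orange) lie lower with medians of 1.37 in DMSO and 1.98 in TN, and the 11 lower genes of the cholesterol synthesis list (dark blue) lie at the lower left.

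The larger part of the higher genes, 944 of 1015, was in none of the interferon lists, and it followed the GC content of the transcripts. The median GC content was 38.0% in these 944 genes, 43.1% in the 71 higher interferon-list genes, and 48.0% in all tested genes. When tested genes were cut into 4 classes of GC content, 847 of 3603 genes were higher in the lowest class (23.5%) and 19 of 3601 in the highest (0.528%). With GC offsets, 259 genes were higher in all (1.79% of those tested), and 210 of these were among the 1015. Of the 944 genes outside the interferon lists, 155 remained (16.4%), and of the 71 genes inside them, 55 remained (77.5%). Whether the low GC content of these transcripts and the trends of the libraries share an origin was not tested. Of 396 tested genes with a symbol of the zinc finger series ZNF, 76 were higher and 3 lower, beside 7.03% and 0.859% over all tested genes. With GC offsets as well, 10 were higher. These genes were grouped by symbol and not by a fixed list, and their GC content was not compared.

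**Figure D3:**
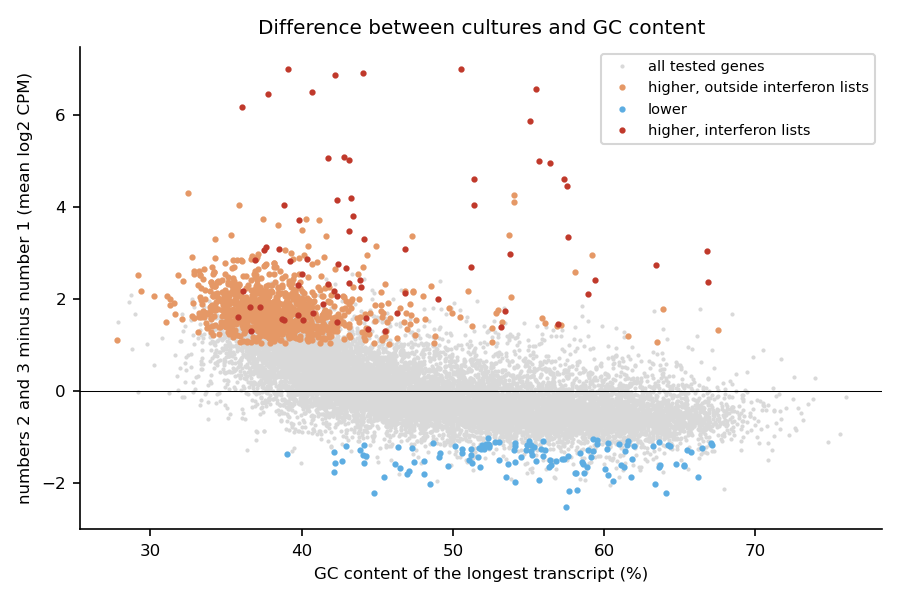
Mean log2 difference of numbers 2 and 3 from number 1 against the GC content of the longest transcript, for all tested genes. The other higher genes (orange) lie at low GC content with a median of 38.0%, and the higher interferon-list genes (red) spread over a wider range with a median of 43.1%.

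Among the other higher genes with a mean of at least 5 CPM, the largest differences after CXCL8 and BIRC3 were in LYRM7, a mitochondrial complex III assembly factor, with 2.94, and DNAJB4, a chaperone, with 2.92. LIG4, the DNA ligase of end joining, was at 2.41, 17.1, and 19.6 CPM in DMSO and at 2.42, 20.7, and 18.3 CPM in TN. FGF2, a growth factor, was at 3.18, 16.3, and 17.1 CPM in DMSO and at 0.948, 8.85, and 10.3 CPM in TN. In LIG4 the DMSO and TN levels within numbers 2 and 3 lay close together, unlike in the marker genes. Among the 20 largest of these differences, those still counted with GC offsets included BIRC3, DNAJB4, LIG4, SRFBP1, CCDC68, CCDC186, PIBF1, ZNF567, THAP5, GALNT3, FGF2, and C4orf33, and those no longer counted were in CXCL8, LYRM7, ZBTB8A, LRRCC1, SENP7, ZNF711, and COPS2.

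Some of the other higher genes that remained with GC offsets had transcripts without a low GC content, and they were chosen after their values were seen. LGALS9, a galectin, was at 0, 3.36, and 3.78 CPM in DMSO and at 0.105, 0.461, and 1.80 CPM in TN, and its promoter holds the paired GAAA letters. NEDD9, a scaffold of cell adhesion, was at 0.164, 5.35, and 6.75 CPM in DMSO and at 0, 0.277, and 1.37 CPM in TN. TAX1BP1, an autophagy receptor, was at 28.7, 83.3, and 88.2 CPM in DMSO and at 25.7, 157, and 147 CPM in TN. LGALS9 and NEDD9 were highest in DMSO 2 and 3 as the ISGs were, and TAX1BP1 was highest in TN 2 and 3.

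Genes of cholesterol synthesis were among the lower genes. Of 24 tested genes of the cholesterol synthesis list, 11 were lower and 0 higher, 19 of 24 had no overlap between the numbers, and the median difference was -1.23. Over all tested genes, 18.8% had no overlap in the lower direction and 20.7% in the higher direction. INSIG1, which holds the sterol sensor in the endoplasmic reticulum, was at 157, 41.2, and 42.7 CPM in DMSO and at 152, 27.6, and 24.6 CPM in TN. FDFT1, which makes squalene, was at 343, 125, and 122 CPM in DMSO and at 460, 97.4, and 114 CPM in TN. In both genes the 2 libraries numbered 1 lay above the other 4. MVK, LSS, DHCR7, NSDHL, MVD, FDPS, and EBP, which encode enzymes of the pathway, were further members, with differences from -2.15 for MVK to -1.29 for EBP. With GC offsets, 148 genes were lower in all (1.03% of those tested), of which 46 were among the 124, and 8 of the 11 cholesterol genes were among these 46.

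Some genes of lipid metabolism outside the list were among the 15 largest differences in the lower direction in the 42 lower genes with a mean of at least 5 CPM. SCD, the desaturase that makes oleate, was at 834, 316, and 290 CPM in DMSO and at 897, 272, and 225 CPM in TN. FASN, the fatty acid synthase, was at 191, 84.0, and 75.5 CPM in DMSO and at 187, 49.9, and 43.4 CPM in TN. ACAT2, an acetyl-CoA acetyltransferase, was at 181, 73.2, and 78.1 CPM in DMSO and at 94.9, 19.6, and 20.1 CPM in TN. LPIN1, a phosphatidate phosphatase, was at 28.5, 12.1, and 13.0 CPM in DMSO and at 65.1, 15.8, and 18.6 CPM in TN. All 4 genes were higher in the library numbered 1 of each treatment and remained among the lower genes with GC offsets. The other large differences were in FGFBP1, a carrier of fibroblast growth factors, with -2.02, MXD3, a MAX partner, with -1.64, and the pseudogene SMG1P7, with -1.55, and of these MXD3 did not remain with GC offsets. SMG1P7 shares sequence with SMG1 copies, and its counts are uncertain.

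The levels of cholesterol genes differed among the OA libraries, in all of which interferon effectors were low. Summed over the list, on the scale of all 12 libraries, the level was 3492 and 3190 CPM in DMSO 1 and TN 1 and between 1353 and 1579 CPM in the 4 interferon-high libraries. The OA libraries numbered 1 and 3 were between 1390 and 1508 CPM, within the range of the interferon-high cultures. The OA libraries numbered 2 were at 3678 CPM in DMSO and 4530 CPM in OA, above DMSO 1 and TN 1. Summed interferon effectors were at most 4209 CPM in the 6 OA libraries, and within each treatment they were also highest in number 2, at 3033 CPM against 2931 and 2989 CPM in DMSO and at 4209 CPM against 3588 and 3451 CPM in OA. The OA libraries numbered 2 were singled out after their values were seen. INSIG1 shows this by library, with 20.9, 138, and 23.2 CPM in OA DMSO 1, 2, and 3. In 18 of 24 cholesterol genes both OA libraries numbered 2 lay above the other libraries of their treatment, as did 27.3% of all tested genes.

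**Figure D4:**
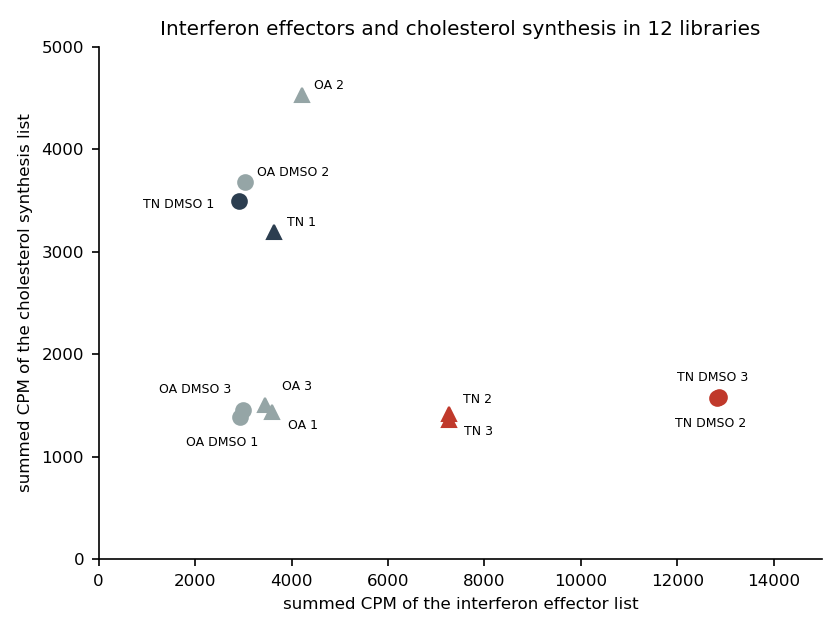
Summed CPM of the interferon effector list (x axis) and of the cholesterol synthesis list (y axis) in each of the 12 libraries, with circles for DMSO and triangles for treated cultures. The 4 interferon-high libraries (red) lie at 1353 to 1579 CPM of cholesterol genes, and so do the OA libraries numbered 1 and 3 at low interferon levels, whereas DMSO 1, TN 1, and the OA libraries numbered 2 lie at 3190 CPM or more.

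The higher genes outside the interferon lists were likewise split among the OA libraries. In 747 of the 944 (79.1%), both OA libraries numbered 2 lay below the other libraries of their treatment, against 29.6% of all tested genes. The correlation of gene deviations with GC content was 0.32 and 0.50 in these libraries, positive as in DMSO 1 and TN 1, against -0.62 and -0.51 in the OA libraries numbered 1 and -0.31 and 0.31 in those numbered 3, and its part in this count was not tested. For the 155 genes that remained with GC offsets, the count was 91 (58.7%). For the 71 interferon-list genes it was 40 (56.3%), with a median of -0.69 on the log2 scale, whereas the median of the 944 was -1.18. Relative to the mean of the OA DMSO libraries, the median of the 944 genes was -0.29 in DMSO 1, 0.92 and 1.01 in DMSO 2 and 3, 0.67 in OA DMSO 1, and -0.71 in OA DMSO 2. The corresponding medians of the interferon-list genes were -0.09, 2.87 and 2.80, 0.19, and -0.23. Hence the interferon-list genes in OA DMSO 1 and 2 lay near DMSO 1, while the other higher genes in these libraries lay apart from each other.

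The other lists are given by their counts, beside shares of 7.03% higher and 0.859% lower over all 14432 tested genes, and counts near these shares are no result about a list. Of the tested genes for DNA replication, 0 of 37 were higher or lower, and of those for the integrated stress response 0 of 27 were. In the unfolded protein response, 1 of 29 was higher, namely DNAJC10, a disulfide reductase of the endoplasmic reticulum, with 1.71. Among p53 targets, PMAIP1 and FAS, which promote cell death, were higher with 1.73 and 1.32, and DDB2, a DNA repair factor, was lower with -1.27, of 22 tested, and none of these 3 or DNAJC10 was counted with GC offsets. The counts were 1 of 27 for immediate early genes (KLF10, 1.65), 1 of 15 for heat shock genes (DNAJB4), 1 of 23 for silencing of repeats (ATRX, 1.69), and 1 of 5 for metal response genes (SLC30A1, 1.83). For mitosis, HMMR was higher and PRC1 lower, of 29 tested. HMMR and ATRX were not counted with GC offsets. For mitochondrial mRNAs, 0 of 12 were higher or lower, and the median difference was -0.48. No overlap in the lower direction was found in 5 of these 12 and in 13 of 30 hypoxia and glycolysis genes, against 18.8% of all tested genes. Just inside the limit of 1 were UHRF1BP1L and SGPP1, each with 1.00 in DMSO. Just outside were MDM1 with 0.999 in TN and PSIP1 with 0.999 in DMSO.

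Genes of the unfolded protein response were higher with TN within all 3 numbers, and interferon-list genes were lower with TN in the interferon-high cultures. For the unfolded protein response, the median TN minus DMSO difference was 1.84, 1.57, and 1.70 on the log2 scale within numbers 1, 2, and 3. For the 71 higher interferon-list genes, the median was -0.38 within number 1, -1.27 within number 2, and -1.25 within number 3. Over all tested genes it was between -0.08 and 0.00 in the 3 numbers. In 65 of the 71 genes TN was lower than DMSO within both numbers 2 and 3, against 443 of the 944 other higher genes and 6400 of 14432 tested genes. The 4 interferon genes had a median of -2.35 within number 2 and -2.42 within number 3, and summed interferon effectors were at 12818 and 12857 CPM in DMSO 2 and 3 and at 7256 and 7264 CPM in TN 2 and 3.

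The quasi-likelihood test of edgeR compared 3 TN with 3 DMSO libraries, with p-values adjusted by Benjamini and Hochberg's method, and 527 genes were higher (3.65%) and 482 lower (3.34%) over all tested genes. With no term for the number, 0 of the 1015 higher and 0 of the 124 lower genes of the interferon-high cultures passed, and 23 and 0 had an unadjusted p under 0.05. DESeq2 called 5 of the 1015, which were 1 higher and 4 lower, and 0 of the 124. Over all tested genes DESeq2 called 1130 higher and 1032 lower. The GC offsets without the block called 60 of the 944 genes outside the interferon lists higher and 28 lower, and 1 interferon-list gene in each direction. Over all 14432 tested genes this setting called 1617 higher and 1520 lower, so these counts are no result about the 944. With no filter, 16 interferon-list genes were lower and 1 higher, beside 907 lower and 741 higher over all genes. Without TN 1, 27 of the 944 were higher, beside 1085 over all tested genes. Scaling to total counts gave 529 higher and 875 lower genes over all tested ones, and scaling to ACTB gave 1198 and 220. With a block for the replicate number, 1705 genes were higher (11.8%) and 2210 lower (15.3%). Then 44 of the 71 interferon-list genes were lower and 2 higher. Without the 4 markers and the genes at 0 counts in both libraries numbered 1, 61 of the 71 were left, and 38 of these were lower and 2 higher, or 43 and 2 with GC offsets as well. Of the 944 other higher genes 161 were lower and 41 higher, and of the 124 lower genes 7 were lower and 6 higher. With GC offsets and the block, 2630 genes were higher (18.2%) and 2737 lower (19%), and 51 of the 71 interferon-list genes were lower and 2 higher. Of the 944 other higher genes 143 were then lower and 142 higher, both below the shares of 19% and 18.2%. With the block alone, the 161 lower calls among the 944 were near the share of 15.3% and are no result about these genes. The 41 higher calls were below the share of 11.8%, and this gap between higher and lower calls was not kept with the offsets. The 2 interferon-list genes that were higher are ERAP1, a peptidase, and NCOA7, which also has a constitutive form.

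**Figure D5:**
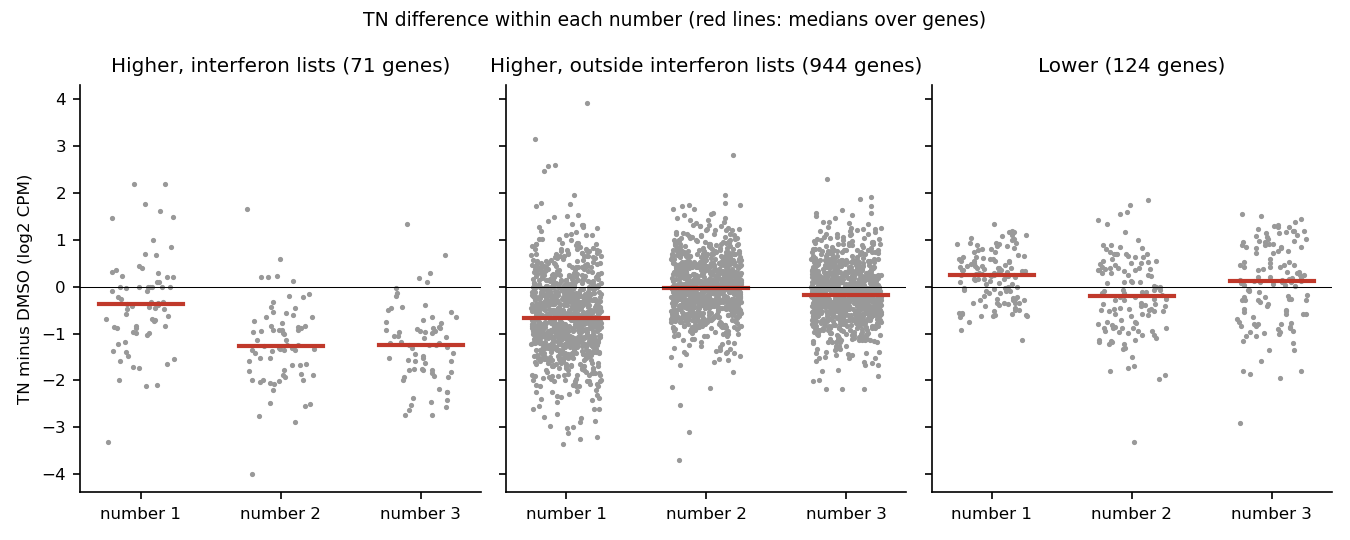
TN minus DMSO on the log2 CPM scale within numbers 1, 2, and 3 for each gene (grey points) and the median over genes (red lines). For the 71 interferon-list genes the medians are -0.38, -1.27, and -1.25, and for the 944 other higher genes and the 124 lower genes the medians stay between -0.67 and 0.24.

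CMPK2, a nucleotide kinase encoded beside RSAD2 and chosen after its values were seen, was at 0.767, 50.6, and 50.4 CPM in DMSO and at 0.316, 3.04, and 7.38 CPM in TN. USP18 fell by 1.96 ± 0.28 (SE) on the log2 scale with the block (adjusted p = 0.00205 in the quasi-likelihood fit of edgeR), and without the block the value was -2.20 ± 0.79 with an adjusted p of 0.142. IFNL3 and IFNB1 had values of -2.35 and -2.43 with the block, which rest on numbers 2 and 3 alone, since both genes were at 0 counts in DMSO 1 and TN 1, and no p is given for them. The 4 markers chose the grouping, so their values are given with no p as well, at -0.77 for ISG15, -1.21 for OASL, -1.36 for IFIT2, and -2.72 for RSAD2 with the block. In ISG15 and OASL TN was higher than DMSO within number 1 and lower within numbers 2 and 3. KIF18A, SYNE2, and ZNF107, which with USP18 were among the falls of lowest p, had values from -1.69 to -1.40 with the block, and each was lower in TN within all 3 numbers. TRAM1, which aids protein entry into the endoplasmic reticulum, NCOA7, RB1CC1, DNAJC10, and the coagulation inhibitor gene TFPI had values from 1.07 to 1.32 with the block and were higher in TN within all 3 numbers. In the quasi-likelihood fit of edgeR with the block, the adjusted p of these 8 genes was between 0.000599 and 0.00863, and without the block between 0.125 and 0.196.

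Whether TN acted differently in the interferon-high cultures was tested as an interaction, that is, the TN effect in numbers 2 and 3 minus that in number 1. Number 1 has 1 library per treatment, so its spread was assumed to equal that between numbers 2 and 3, and the calls are read with that limit. Over all tested genes 1536 had a positive interaction (10.6%) and 1477 a negative one (10.2%) in the quasi-likelihood test of edgeR. Scaling changed this split, to 2416 and 487 with total counts and to 2072 and 754 with DESeq2 size factors, and leaving out 1 library gave 1755 to 2751 positive and 345 to 1970 negative genes. Of the 71 interferon-list genes, 26 were negative and 4 positive, the latter TANK, XRN1, ERAP2, and TBK1. The 26 hold 3 of the markers that chose the grouping, and over the 67 genes without the markers 23 were negative and 4 positive. Without the genes at 0 counts in both libraries numbered 1 as well, 61 were left, with the same 23 and 4 calls. Of the 944 other higher genes, 308 were positive and 9 negative. With GC offsets, 613 genes were positive (4.25%) and 472 negative (3.27%), 7.52% in all, with 28 negative and 2 positive interferon-list genes (25 and 2 without the markers) and 78 positive and 14 negative other genes. Hence the count of positive calls among the other genes fell with the offsets.

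The markers chose the grouping, so their interactions are given as values with no p. ISG15 had an interaction of -1.60, with TN minus DMSO differences of 0.31, -1.32, and -1.25 within numbers 1, 2, and 3. OASL had -2.62, with 0.69, -2.05, and -1.79. In both ISGs TN was higher than DMSO in number 1 and lower in numbers 2 and 3. CXCL8, named for its difference between the numbers in these libraries, had -5.05, given with no p, with 3.91 within number 1 (4 counts in DMSO 1 and 51 in TN 1) and -0.52 and -0.47 within numbers 2 and 3. IFIT2 had -1.87, with 0.09 within number 1 and -1.78 within each of numbers 2 and 3. ARHGAP5, a GTPase-activating protein, had 1.95, and SEPTIN7, a cytoskeletal protein, had 1.69. Both of these were lower in TN than in DMSO within number 1, at 65.7 and 25.1 CPM for ARHGAP5 and at 92.2 and 24.0 CPM for SEPTIN7. Genes at 0 counts in both libraries numbered 1, such as RSAD2, IFNB1, IFNL2, and IFNL3, cannot show an interaction by this fit. For EIF2AK2 and TLR3 the TN minus DMSO difference was negative within all 3 numbers, between -0.88 and -1.72, and the adjusted p of the interaction was 0.571 and 0.739 in edgeR.

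The OA cultures show how the same genes moved under another stressor, in libraries that the grouping did not use. In the quasi-likelihood fit of edgeR 405 of 14681 tested genes were higher with OA (2.76%) and 253 lower (1.72%), 4.48% in all, and scaling to ACTB gave 1341 and 84. Of the 1015 higher genes 961 could be tested, of which 3 rose and 1 fell in this fit, which had no term for the number. With the replicate block, 17 of the higher genes outside the interferon lists were higher and 286 lower, beside 11.7% and 15% of all tested genes. With GC offsets alone, 30 of them were higher and 21 lower, beside 1249 and 1112 of all tested genes. With the block and GC offsets, 55 of them were higher and 114 lower, beside 1894 and 1874 of all tested genes. Of the 115 tested lower genes 0 passed, 12 had an unadjusted p under 0.05, and DESeq2 called 3. Over all tested genes DESeq2 called 1147 higher and 780 lower. With the replicate block 10 of the 115 were higher and 4 lower, and with the block and GC offsets 7 and 5. With GC offsets alone the counts were 2 and 0, and with scaling to ACTB 5 and 0. CXCL8 was at 1.02, 0.512, and 1.07 CPM in OA DMSO and at 15.2, 33.0, and 9.74 CPM in OA, a rise of 4.58 ± 0.61 on the log2 scale (adjusted p = 0.0157 in edgeR). FAM110C, a gene of the cell cortex, was at 18.4, 9.98, and 16.5 CPM in OA DMSO and at 69.9, 32.3, and 35.3 CPM in OA, a rise of 1.66 ± 0.37 (adjusted p = 0.0477 in edgeR). In both genes the OA and DMSO libraries did not overlap. Both calls were lost when any 1 OA DMSO library was left out, with an adjusted p in edgeR of at least 0.0802 for CXCL8 and 0.131 for FAM110C. The values in these fits were 4.32 to 4.76 for CXCL8 and 1.49 to 1.92 for FAM110C. Over all tested genes these fits called only 3 to 5 genes higher and 0 lower, so the loss is not particular to these genes. With the replicate block on all libraries, the adjusted p in edgeR was 0.000562 for CXCL8 and 0.000987 for FAM110C. The FAM110C call was also lost without OA 1 (adjusted p = 0.056 in edgeR), without OA 3 (0.105), and with total counts (0.118). CREB5, a transcription factor, had 3.76 (adjusted p = 0.0369 in edgeR), and SEMA3D, a guidance cue, had -4.58 (adjusted p = 0.0386 in edgeR). Without any 1 OA DMSO library, 0 of the higher or lower genes of the interferon-high cultures passed. With only 3 to 5 calls over all tested genes in these fits, this is no result about the cultures' genes. Of the 71 interferon-list genes 62 could be tested, and 0 passed in edgeR, 9 had an unadjusted p under 0.05, and DESeq2 called 2 higher and 3 lower. With the replicate block in edgeR 3 were higher and 14 lower, and with GC offsets alone 3 and 3. In the edgeR fit without these terms OAS3 was next to the threshold, with -1.46 ± 0.34 and an adjusted p of 0.0507. OASL was at 1.47 ± 0.35 with 0.0564 in that fit.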

How the data were processed

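The authors aligned RNA-seq reads of HCT116 cultures to the human genome hg38 with STAR and deposited raw read counts per gene for 60708 GENCODE genes, 1 table per experiment. The setting for strand is not given in the sources used here. Tables of the authors' own comparisons (log2 fold changes, their errors, p-values, and adjusted p-values) were not used, and 0 sample columns were left unused.

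Counts were filtered with filterByExpr and scaled with TMM (edgeR 4.0.16, R 4.3.3). Log2 CPM used a prior count of 2. The TN effect (3 against 3), its difference between numbers 2 and 3 and number 1, and the OA effect were tested by the quasi-likelihood method of edgeR, and p-values were adjusted by Benjamini and Hochberg's method over all genes of a table that passed the filter, with a threshold of 0.05. SE was taken as the absolute value of log2 fold change over the root of F. GC offsets were loess curves (span 0.3) over genes with a mean of at least 20 counts, by GC content of the longest GENCODE v44 transcript, which also gave the positions. DESeq2 1.42.0, other scalings, filters, thresholds, and left-out libraries were alternatives. The fits were also tested on simulated data, and the outcome is not reported here. Promoters are from RefSeq (GRCh38.p14).

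Deviations of same-numbered TN-experiment libraries from their group means correlated at 0.64, 0.41, and 0.43 for numbers 1, 2, and 3. Numbers 2 and 3 correlated with each other as well (0.44 for DMSO 3 with TN 2 and 0.38 for DMSO 2 with TN 3). This check thus sets number 1 apart and does not show pairs among numbers 2 and 3. The main TN test had no term for the number, and the replicate block was an alternative. The members and gene lists were chosen with earlier results of these data known. Genes named are the 4 markers, the 10 largest rises inside and 20 outside the interferon lists and the 15 largest falls with a mean of at least 5 CPM, up to 4 from each other list, the lowest p-values of each test (5 per test, and 5 per direction for TN), and 2 genes on each side of the limit. Some genes that meet this rule are not reported here. Others are named as chosen after their values were seen or as members of a described list. Library totals limit the precision of low counts, and floors of 3 counts cover counting error only.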

Additional observations from a re-analysis of the deposited data

Results flagged for a closer look

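The genes named here were selected by the interaction test of edgeR for the TN effect in numbers 2 and 3 minus that in number 1. Number 1 has 1 library per treatment and its spread is borrowed from numbers 2 and 3, so a difference between cultures is not established by these calls. The values are log2 differences of the TN effect. ISG15 (-1.60), OASL (-2.62), and IFIT2 (-1.87) are markers that chose the grouping, and their values are a description only. Among other interferon genes the values were -1.32 for USP18 and -0.60 for OAS3. Among cytokine and NF-kB genes they were -5.05 for CXCL8 (4 and 51 counts in DMSO 1 and TN 1, a description as well), -1.89 for IL15, and 0.73 for BIRC2. Among the named cholesterol and lipid genes they were -0.64 for INSIG1, -0.81 for MVK, -0.65 for FDFT1, -0.996 for ACAT2, -0.39 for SCD, -0.745 for FASN, and -0.73 for LPIN1, and over the whole cholesterol synthesis list 3 interactions were positive and 6 negative. The other negative value was -0.60 for PMAIP1. Positive values were 3.23 for LYRM7, 3.24 for ZBTB8A, 1.95 for ARHGAP5, 1.87 for COPS2, 1.69 for SEPTIN7, 1.64 for SENP7, 1.63 for ZNF711, 1.24 for PIBF1, 1.18 for DNAJC10, 1.03 for SGPP1, 0.91 for HMMR, 0.90 for KLF10, and 0.69 for TRAM1. Without the 3 markers and CXCL8 there were 25 calls, of which 12 were lost with GC offsets. The values of these 12 with the offsets were -0.31 for OAS3, 0.23 for BIRC2, -0.35 for MVK, and -0.32 for SCD. They were -0.20 for FASN, -0.61 for LPIN1, 1.09 for SENP7, and 1.10 for ZNF711. For PIBF1, SGPP1, HMMR, and TRAM1 they were 0.70, 0.69, 0.37, and 0.19, so the signs were kept. The higher and lower genes were chosen on the same libraries, so the counts over them are a description. Over the 71 higher interferon-list genes 4 were positive and 26 negative, over the 944 other higher genes 308 and 9, and over the 124 lower genes 0 and 11. Over all tested genes 10.6% were positive and 10.2% negative, and the negative count of the lower genes is near that share and is no result about them. Without the markers, the interferon-list genes gave 4 and 23. DESeq2 gave 4 and 20, 285 and 1, and 0 and 5, and GC offsets gave 2 and 28, 78 and 14, and 0 and 4.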

How the results depend on the processing

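The 1015 higher and 124 lower genes became 2454 and 15 with scaling to ACTB, which moved the median difference of all genes from -0.08 to 0.39 on the log2 scale, and total counts moved it to 0.16 with 57 lower genes. The lower genes numbered 353 with no filter and 68 with at least 10 counts in every library, and GC offsets gave 259 higher genes. A limit of 1.5-fold gave 1930 and 739, and a limit of 4-fold gave 106 and 0. Genes outside the interferon lists numbered 2365 with ACTB, 194 with GC offsets, 1844 at 1.5-fold, and 69 at 4-fold, against 944. Interferon-list genes numbered 37 at 4-fold, against 71. Leaving out 1 library gave 901 to 3123 higher, 161 to 947 lower, 71 to 100 interferon-list, and 830 to 3040 other genes. The largest counts came without DMSO 1 (3123 and 947), and TN 1 gave 1451 and 390. The differences of the named genes that were counted as higher or lower kept their sign in every alternative run that held them. The sign was not checked for MDM1 and PSIP1, which lay just outside the limit. Over all 76 named genes, 378 values moved by more than the spread between replicates and 749 did not.

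For the TN effect (527 higher, 482 lower), DESeq2 gave 1130 and 1032, GC offsets 1617 and 1520, ACTB 1198 and 220, total counts 875 lower, and no filter 907 lower. The replicate block gave 1705 and 2210, the block with GC offsets 2630 and 2737, and a term for the number class 2206 and 2908. Leaving out 1 library gave 79 to 1085 higher and 72 to 1276 lower, with the most without TN 1.

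For the interaction (1536 positive, 1477 negative), DESeq2 gave 359 negative, DESeq2 size factors 754 negative, total counts 2416 and 487, no filter 2412 and 508, at least 10 counts 2356 and 589, and GC offsets 613 and 472. Leaving out 1 library gave 1755 to 2751 positive and 345 to 1970 negative.

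For the OA effect (405 higher, 253 lower), DESeq2 gave 1147 and 780, total counts 396 lower, no filter 888 and 684, GC offsets 1249 and 1112, and ACTB 1341 and 84. The OA libraries share only a number (correlations of 0.62, 0.54, and 0.09), and the replicate block gave 1713 and 2201, with GC offsets 1894 and 1874. With the block 17 of the other higher genes of the interferon-high cultures were higher with OA and 286 lower, and 3 and 14 of the interferon-list genes, and with GC offsets as well these were 55 and 114, and 5 and 9. Leaving out 1 library gave 3 to 730 higher and 0 to 449 lower. ISG15, at -0.00 with OA, had 0.46 with ACTB and between -0.49 and 0.20 when 1 library was left out, and it was positive without OA DMSO 2 (0.11), without OA 1 (0.20), and without OA 3 (0.14). The cause of these changes was not tested unless stated.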

Other observations

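Of the 1015 higher genes, 957 were protein coding and 33 were long noncoding RNA genes by GENCODE v44. Of the 124 lower genes, 71 were protein coding, 29 were long noncoding RNA genes, and 11 were processed pseudogenes. In 15 of the higher genes both libraries numbered 1 had 0 counts, and these include the interferons IFNB1, IFNL2, and IFNL3, the chemokines CXCL10 and CCL20, and the antiviral gene SAMD9L.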
